A study of Arabidopsis thaliana with 18 samples.

Results

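Chlorophyll, heme and the light-sensing bilins share 1 branched pathway, and the 31 genes described here encode its enzymes and 2 of its regulators. They were chosen by locus, from glutamyl-tRNA reductase (HEMA1, AT1G58290) to the last steps of chlorophyll a and b synthesis, with the heme and bilin branch and the regulators FLU and GUN4, by a rule that uses no measured value. Earlier results of these data were known when they were chosen. All 31 were found among the 24953 genes of the deposited tables, as 54 transcripts, and 15 of them had a single transcript. They fall into 10 genes of the common trunk, 10 of the magnesium branch down to chlorophyllide, 5 of the late chlorophyll steps, 4 of the heme and bilin branch and the 2 regulators.

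RNA was taken from whole short-day Arabidopsis seedlings (Col-0 background) of SOB3-D, which overexpresses the AT-hook protein SOB3/AHL29, and of sob3-6, a line in the SOB3-D background whose overexpressed copy has an amino acid change in its AT-hook and which is labelled a dominant-negative ahl mutant. Seedlings had 8 h of light and 16 h of darkness at 22 °C on medium with 1% sucrose, and were harvested at ZT4 (in the light) and ZT9 (1 h after dusk) when 5 days old, and at ZT24 (dawn) when 6 days old. Each genotype and time point had 3 biological replicates, 18 libraries in all. Both genotypes carry the overexpressed copy and no wild type library is used here, so a difference between them cannot be assigned to either allele. Whole seedlings were pooled, and fewer cells of a type and less RNA per cell cannot be told apart in such samples.

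Plants make all tetrapyrroles in the plastid from glutamate, and the trunk runs through 5-aminolevulinic acid to protoporphyrin. Ferrochelatase then inserts iron to give heme, from which the phytochrome chromophore is made, while magnesium chelatase sends protoporphyrin towards chlorophyll. The free intermediates are phototoxic, and flowering plants can reduce protochlorophyllide only in the light. Transcripts of several enzymes of the pathway are known to follow light and the circadian clock.

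The deposited signal is in CPM, the reads of a transcript scaled to the mapped reads of its library, with a read counted on every transcript it hits equally well. Libraries had 6012747 to 11076919 mapped reads, and Pearson's r between replicates, across transcripts, ran from 0.975 to 0.990. SOB3 itself (AT1G76500) ranged from 133 to 235 CPM in SOB3-D and from 227 to 331 CPM in sob3-6. The 5 green tissue markers summed at ZT9 to between 29999.8 and 38710.4 CPM in SOB3-D and between 28844 and 37244 CPM in sob3-6. The 4 root markers summed at ZT9 to between 2976 and 3061 CPM in SOB3-D and between 1849.7 and 2148 CPM in sob3-6, almost all of it from PYK10. The other root markers, COBL9, CASP1 and SCR, overlapped between the genotypes there, and the median log2 difference of the 4 was 0.11. The 2 epidermis markers summed at ZT9 to between 226 and 259 CPM in SOB3-D and between 321 and 377 CPM in sob3-6. Of the green markers, LHCA1 was called higher in sob3-6 at ZT9 and RBCS2B and RCA lower, and none of the markers was at 0 in any library. Whether tissue shares differed between the genotypes, and their part in the results, was not tested.

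Per kilobase of transcript, the members spanned from 877 CPM for CRD1 to 2.34 CPM for PORA in the mean of the 18 libraries. Next to CRD1 came CHLP at 720 CPM per kilobase, CHLH at 417 and PORB at 311. HEMD, HCAR and HY2 stood just above PORA at 16.0, 9.31 and 6.78 CPM per kilobase. Genes of the magnesium branch thus held 5 of the 6 highest places, and CHLP, a late enzyme, held the other.

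Between the genotypes, tetrapyrrole genes differed mostly at ZT9, 1 h after dusk, and in both directions. At ZT4 limma (adjusted p under 0.05 over all genes' transcripts) called 1 of 31 members higher in sob3-6, against 4.26% of the 20665 genes tested, and called 0 lower, against 2.45%. At an unadjusted p under 0.05 the ZT4 counts were 2 higher and 4 lower, edgeR's quasi-likelihood test called 1 higher and 0 lower, and DESeq2 2 higher and 1 lower. At ZT9 7 members were higher, against a background of 5.96% of genes, and 6 were lower, against 4.11%. At ZT24 3 members were higher, against 4.9%, and 3 lower, against 2.05%.

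The members did not shift as a block. Their median log2 difference (sob3-6 minus SOB3-D) was -0.01 at ZT4, beside 0.04 over all genes tested. It was -0.17 at ZT9, beside 0.03, and -0.02 at ZT24, beside 0.01. What grew at ZT9 was the spread, with a median absolute log2 difference of 0.32 over the members and 0.19 over all genes, against 0.10 and 0.19 at ZT4 and 0.14 and 0.16 at ZT24.

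**Figure D1:**
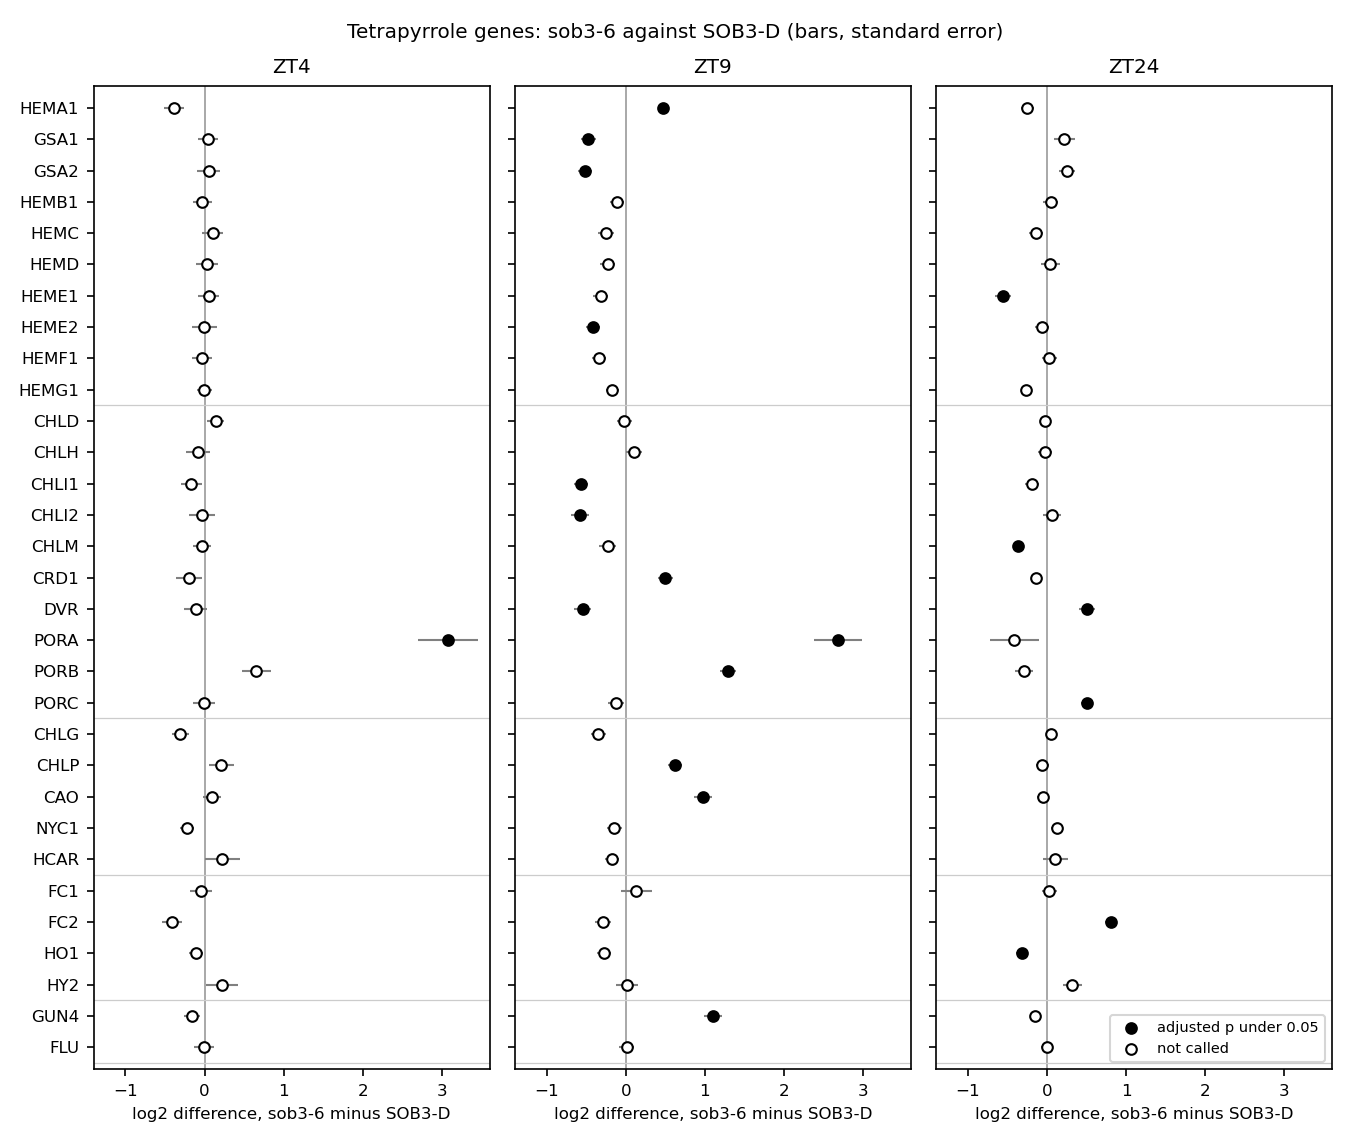
Log2 difference in transcript level, sob3-6 minus SOB3-D, on the log2(CPM + 0.5) scale for the 31 genes (rows, with grey lines between trunk, magnesium branch, late chlorophyll steps, heme and bilin branch, and regulators) at each time point. Bars are standard errors, filled points are calls with a limma adjusted p under 0.05, and 13 of the 31 points are filled at ZT9, 7 to the right of 0 and 6 to the left.

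Replicate numbers mark seedlings of both genotypes taken from the same plates, and a fit with the replicate as a block changed several of these counts by more than 1.5 times. With the block, 2 members were higher at ZT4 (6.0% of genes) and 1 was lower (3.99%). At ZT9 10 were lower (7.07% of genes), with HEME1, HEMF1, CHLG and FC2 added. At ZT24 6 were lower (4.97%), with HEMA1, HEMG1 and PORB added. The counts of lower members also changed when single libraries were left out. The 6 at ZT9 became 1 without SOB3-D replicate 1, 2 without SOB3-D replicate 2 or sob3-6 replicate 2, and 10 without sob3-6 replicate 3, whereas higher members numbered 6 or 7 in each of these fits. The 3 lower members at ZT24 became 1 without SOB3-D replicate 2 or sob3-6 replicate 2. For fits with a library left out the shares of all genes called are not given, and the part of having fewer libraries was not tested.

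The protochlorophyllide oxidoreductases, PORA, PORB and PORC, carry out the light-requiring step of chlorophyll synthesis, and each had its own pattern. PORA is known for its high level in dark-grown seedlings and its loss in the light, while PORB and PORC maintain greening in the light. PORA was called higher in sob3-6 at ZT4 and ZT9, PORB at ZT9 and PORC at ZT24.

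PORA (AT5G54190, chromosome 5 from 21990864 to 21992814) gave few reads in SOB3-D at ZT4 and ZT9. At ZT4 it was read at 1.09, 0.361 and 2.16 CPM in SOB3-D (12, 4 and 13 reads) and at 10.12, 11.3 and 16.9 CPM in sob3-6 (72, 97 and 141 reads). At ZT9 it was read at 0, 0.14 and 0.258 CPM in SOB3-D (0, 1 and 2 reads) and at 4.91, 3.14 and 2.75 CPM in sob3-6 (44, 25 and 22 reads). The groups did not overlap at either time. The ratio of the pooled shares of reads, sob3-6 over SOB3-D, was 12.5 at ZT4 (95% exact interval 8.501 to 18.9) and 27.9 at ZT9 (9.26 to 138), intervals that cover counting error only. On the log2(CPM + 0.5) scale the difference was 3.07 at ZT4 (standard error 0.38, limma adjusted p = 0.00267) and 2.68 at ZT9 (standard error 0.30, limma adjusted p = 0.00143). The size, though not the call, depended on the pseudocount: at ZT9 it was 4.13 with 0.1 CPM added and 2.00 with 1 CPM. At ZT24 the genotypes overlapped, with 1.64, 2.31 and 3.997 CPM in SOB3-D and 1.71, 1.296 and 2.40 CPM in sob3-6 (log2 difference -0.41, 95% interval -1.12 to 0.29, limma adjusted p = 0.494).

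PORB (AT4G27440, chromosome 4 from 13725546 to 13727440) was the most abundant of the 3 per kilobase and the member with the smallest adjusted p between genotypes at any time point. At ZT9 it stood at 461, 443 and 419.5 CPM in SOB3-D and at 1126, 1126 and 993.5 CPM in sob3-6. The log2 difference was 1.29 (standard error 0.098, limma adjusted p = 0.000200), and the groups were far apart. At ZT4 the values were 390, 555 and 480 CPM in SOB3-D and 605.5, 701 and 957 CPM in sob3-6, which also did not overlap but did not pass the test (log2 difference 0.65, limma adjusted p = 0.0747, 0.0191 with the replicate block). At ZT24 the order was turned, with 149.8, 192 and 164 CPM in SOB3-D and 118, 143 and 151 CPM in sob3-6. These overlapped by 1 library (log2 difference -0.29, limma adjusted p = 0.174, 0.0215 with the block).

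PORC (AT1G03630, chromosome 1 from 907523 to 909650) overlapped between the genotypes at ZT4 and ZT9. It ranged over 173 to 222 CPM in SOB3-D and 172 to 229.9 CPM in sob3-6 at ZT4, and over 141 to 144 and 116 to 151 CPM at ZT9. The 95% interval of the log2 difference was -0.31 to 0.30 at ZT4 and -0.35 to 0.11 at ZT9. At ZT24 PORC stood at 66.1, 60.2 and 65.4 CPM in SOB3-D and at 88.9, 87.7 and 95.03 CPM in sob3-6. All sob3-6 libraries were thus above all SOB3-D libraries (log2 difference 0.50, standard error 0.071, limma adjusted p = 0.00406).

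**Figure D2:**
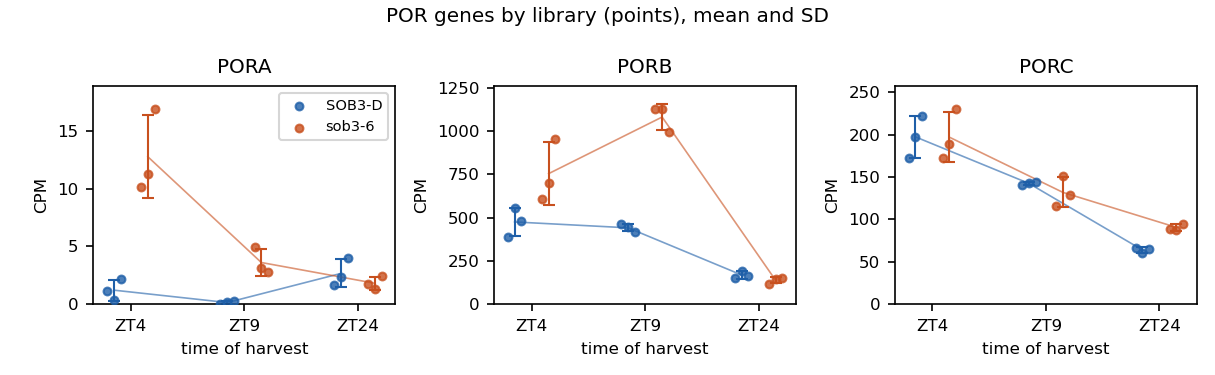
Level in CPM (vertical axes, from 0, a separate scale for each gene) of PORA, PORB and PORC in each library at ZT4, ZT9 and ZT24. Points are libraries, bars the mean and SD of 3, and colours the genotypes. PORB at ZT9 lies between 419.5 and 461 CPM in SOB3-D and between 993.5 and 1126 CPM in sob3-6, and PORC separates only at ZT24.

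The stretches before PORA, PORB, CAO and CRD1 are shown, chosen after the values were seen, because these 4 genes were called higher in sob3-6 at ZT9 and hold a G-box or an evening element, DNA words bound in Arabidopsis by light-signalling and by clock transcription factors. They are the 300 bases before the annotated gene start on the TAIR10.1 assembly (RefSeq), written 5′ to 3′ on the gene's own strand, with any part that lies in a neighbouring gene left off. Capitals mark the words searched on both strands, CACGTG (G-box), CACATG (PBE-box), AAAATATCT (evening element) and GGCCCA (the core of a TCP site). No match shown overlaps another.
PORA, chr5:21992815-21993114, minus strand: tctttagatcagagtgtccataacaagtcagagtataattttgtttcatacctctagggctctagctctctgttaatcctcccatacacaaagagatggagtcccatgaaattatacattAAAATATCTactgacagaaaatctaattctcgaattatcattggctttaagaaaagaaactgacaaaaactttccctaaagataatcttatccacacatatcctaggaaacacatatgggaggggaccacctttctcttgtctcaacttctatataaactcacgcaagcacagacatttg
PORB, chr4:13725360-13725545, plus strand: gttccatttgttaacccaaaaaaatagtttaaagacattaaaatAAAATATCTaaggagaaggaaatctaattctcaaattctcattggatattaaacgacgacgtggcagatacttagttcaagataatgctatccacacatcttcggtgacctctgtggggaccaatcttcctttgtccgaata
CAO, chr1:16851272-16851571, minus strand: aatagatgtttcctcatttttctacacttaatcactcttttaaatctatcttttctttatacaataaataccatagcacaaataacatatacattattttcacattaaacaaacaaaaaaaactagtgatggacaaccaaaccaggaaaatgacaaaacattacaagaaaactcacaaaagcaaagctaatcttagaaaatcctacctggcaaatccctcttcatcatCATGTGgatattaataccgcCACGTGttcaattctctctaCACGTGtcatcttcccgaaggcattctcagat
CRD1, chr3:21076316-21076504, plus strand: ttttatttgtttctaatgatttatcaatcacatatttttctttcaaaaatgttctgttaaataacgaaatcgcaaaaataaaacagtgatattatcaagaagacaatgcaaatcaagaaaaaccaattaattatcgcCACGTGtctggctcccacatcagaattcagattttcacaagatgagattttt

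In these stretches the evening element began 180 bases before the start of PORA and 142 bases before that of PORB, and the G-box 52 and 32 bases before CAO and 52 bases before CRD1. Over all 31 members, 3 (9.68%) held an evening element in the 300 bases, the third being NYC1, against 2.79% of 27443 genes. A G-box was found before 5 members (16.1%), HEMD, CRD1, CAO, FC2 and HY2, against 7.09% of genes. The PBE-box was found before 3 members (9.68%, against 13.1%) and the TCP core before 7 (22.6%, against 14.6%). A match describes the letters only.

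Of the 2 regulators, GUN4 was called between the genotypes at ZT9 and FLU at no time point. GUN4 (AT3G59400, chromosome 3 from 21948501 to 21949796) binds the porphyrin substrate and stimulates magnesium chelatase, and FLU represses glutamyl-tRNA reductase in the dark. At ZT9 GUN4 was read at 22.4, 23.0 and 23.1 CPM in SOB3-D and at 48.2, 57.9 and 43.8 CPM in sob3-6. The groups were well apart (log2 difference 1.10, standard error 0.12, limma adjusted p = 0.00101). At ZT4 it was far higher in both, at 267, 292 and 269 CPM in SOB3-D and 240.0, 229 and 273.5 CPM in sob3-6, and at ZT24 it stood at 190.3, 187 and 188 CPM in SOB3-D and 181, 158 and 169 CPM in sob3-6. The groups overlapped at ZT4 and not at ZT24, and neither difference passed (log2 difference -0.16 and -0.15, limma adjusted p = 0.400 and 0.224). Exons of AT3G59410 on the other strand cover 946 of the 1296 bases of the GUN4 transcript, and whether strand was used in counting is not given in the sources used here. That gene ranged from 21.4 to 31.3 CPM in SOB3-D and from 27.4 to 33.0 CPM in sob3-6 at ZT9. At ZT4, where GUN4 was at 229 to 292 CPM, AT3G59410 ranged from 29.2 to 31.7 CPM in SOB3-D and from 28.0 to 29.9 CPM in sob3-6. At ZT24 AT3G59410 ranged from 40.2 to 45.1 CPM in SOB3-D and from 34.3 to 34.9 CPM in sob3-6. Whether its reads entered the GUN4 counts was not tested.

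FLU (AT3G14110) overlapped between the genotypes at every time point. It had 62.9, 78.1 and 83.3 CPM in SOB3-D and 66.8, 74.0 and 82.1 CPM in sob3-6 at ZT4, and 96.5, 86.2 and 97.0 against 88.7, 89.0 and 105 CPM at ZT9. At ZT24 it had 78.6, 75.6 and 78.9 CPM in SOB3-D and 76.5, 73.3 and 83.4 CPM in sob3-6. The 95% interval of its log2 difference was -0.29 to 0.28 at ZT4, -0.21 to 0.23 at ZT9 and -0.16 to 0.16 at ZT24.

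In the trunk, the first committed enzyme was higher in sob3-6 at ZT9 while its next neighbours were lower. HEMA1 (AT1G58290), the main glutamyl-tRNA reductase and the rate-limiting step, was read at ZT9 at 168, 165 and 166 CPM in SOB3-D and at 232, 232 and 231 CPM in sob3-6. Replicates were tight and the groups apart (log2 difference 0.48, standard error 0.073, limma adjusted p = 0.00511). At ZT4 HEMA1 had 592, 669 and 703 CPM in SOB3-D and 451.5, 485 and 573 CPM in sob3-6, below every SOB3-D library but not past the test (log2 difference -0.38, limma adjusted p = 0.111). At ZT24 it had 710.0, 609 and 632 CPM in SOB3-D and 603, 518 and 523.5 CPM in sob3-6, again without overlap (log2 difference -0.25, limma adjusted p = 0.136, 0.0121 with the replicate block).

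Glutamate-1-semialdehyde aminotransferase, which completes 5-aminolevulinic acid, is encoded by GSA1 (AT5G63570) and GSA2 (AT3G48730), and both were lower in sob3-6 at ZT9. GSA1 was read at 154, 138 and 137 CPM in SOB3-D and at 94.0, 104.5 and 111 CPM in sob3-6. GSA2 was read at 195, 193 and 183 CPM in SOB3-D and at 121, 135 and 145 CPM in sob3-6. The log2 differences were -0.47 (standard error 0.093, limma adjusted p = 0.0152) and -0.51 (standard error 0.090, limma adjusted p = 0.00935), and neither gene's groups overlapped. The call for GSA1 was lost without SOB3-D replicate 1 or 2 or sob3-6 replicate 2 (limma adjusted p up to 0.0762), and that for GSA2 without SOB3-D replicate 1 (limma adjusted p = 0.0549). Neither gene was called at ZT4 or ZT24, where the log2 differences were 0.04 and 0.22 for GSA1 and 0.05 and 0.26 for GSA2.

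Uroporphyrinogen decarboxylase, further down the trunk, has the genes HEME1 (AT3G14930) and HEME2 (AT2G40490), and these were called lower in sob3-6 at different times. HEME2 at ZT9 had 156, 166 and 157.5 CPM in SOB3-D and 111, 121 and 129 CPM in sob3-6 (log2 difference -0.41, standard error 0.086, limma adjusted p = 0.0185). HEME1 at ZT24 had 91.8, 100.1 and 105 CPM in SOB3-D and 72.7, 57.7 and 71.5 CPM in sob3-6 (log2 difference -0.56, standard error 0.10, limma adjusted p = 0.0115). Both pairs of groups were separate. The HEME2 call was lost without SOB3-D replicate 1 or 2 or sob3-6 replicate 2 (limma adjusted p up to 0.0808), and the HEME1 call without SOB3-D replicate 2 (limma adjusted p = 0.0505). At ZT9 HEME1 had a log2 difference of -0.32 that did not pass (limma adjusted p = 0.0708) but did with the replicate block (0.0350). Its groups were separate there too, at 128 to 139 CPM in SOB3-D and 95.4 to 118 CPM in sob3-6. For neither gene was a change of the genotype difference between time points called.

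The other trunk genes, HEMB1, HEMC, HEMD, HEMF1 and HEMG1, were not called at any time point. Their log2 differences ranged at ZT9 from -0.34 for HEMF1, coproporphyrinogen oxidase (limma adjusted p = 0.0510, 0.0157 with the block), to -0.11 for HEMB1, 5-aminolevulinic acid dehydratase. HEMG1, protoporphyrinogen oxidase, was at -0.26 at ZT24 (limma adjusted p = 0.0602, 0.0171 with the block). Over the 10 trunk genes at ZT9 1 was called higher and 3 lower, against 5.96% and 4.11% of all genes, with a median log2 difference of -0.29 beside 0.03 over all genes.

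In the magnesium branch, 2 genes for the chelatase's ATPase subunit were called at ZT9 and those for its other subunits were not. CHLH (AT5G13630), the large porphyrin-binding subunit, showed no call, with 1026, 942 and 905 CPM in SOB3-D and 991, 1048 and 1054 CPM in sob3-6 at ZT9. At ZT4 it had 2268, 2356 and 2537 CPM in SOB3-D and 2051, 2153 and 2582 CPM in sob3-6, and at ZT24 2485, 2664 and 2799 against 2767, 2523 and 2523 CPM. The groups overlapped at each time, and the 95% intervals of the log2 difference were -0.42 to 0.26, -0.12 to 0.33 and -0.22 to 0.17 at ZT4, ZT9 and ZT24. CHLD, the subunit that links CHLH to the ATPase, had log2 differences of 0.14, -0.02 and -0.02 and no call.

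The ATPase subunits CHLI1 (AT4G18480) and CHLI2 (AT5G45930) were both lower in sob3-6 at ZT9. CHLI1 had 392, 393 and 396 CPM in SOB3-D and 242, 273 and 284 CPM in sob3-6. CHLI2 had 81.0, 83.9 and 70.7 CPM in SOB3-D and 45.3, 54.6 and 57.7 CPM in sob3-6. The log2 differences were -0.57 (standard error 0.089, limma adjusted p = 0.00561) and -0.58 (standard error 0.11, limma adjusted p = 0.0150), and no sob3-6 library reached the lowest SOB3-D library for either gene. The CHLI2 call was lost without SOB3-D replicate 1 or 2 or sob3-6 replicate 2 (limma adjusted p up to 0.0707).

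CHLM (AT4G25080), the methyltransferase that follows the chelatase, was lower in sob3-6 at dawn. At ZT24 it was read at 439.5, 416 and 433 CPM in SOB3-D and at 335, 314 and 347 CPM in sob3-6 (log2 difference -0.37, standard error 0.064, limma adjusted p = 0.00948). The groups did not overlap, and the call was lost without sob3-6 replicate 2 (limma adjusted p = 0.0501). At ZT4 and ZT9 its log2 differences were -0.04 and -0.23 without a call.

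CRD1 (AT3G56940), the catalytic subunit of the cyclase that closes the fifth ring, was higher in sob3-6 at ZT9. It was read there at 620.3, 580.2 and 658 CPM in SOB3-D and at 832, 875 and 925 CPM in sob3-6 (log2 difference 0.50, standard error 0.098, limma adjusted p = 0.0145). At ZT4 it ranged over 1727 to 2092 CPM in SOB3-D and 1503 to 2038 CPM in sob3-6, and at ZT24 over 1392 to 1425 and 1262 to 1316 CPM, with no call. The call at ZT9 was lost without SOB3-D replicate 1, SOB3-D replicate 2 or sob3-6 replicate 2 (limma adjusted p up to 0.0756).

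DVR (AT5G18660), the divinyl reductase, changed sides overnight. At ZT9 it had 106, 98.9 and 103 CPM in SOB3-D and 62.8, 67.0 and 82.6 CPM in sob3-6 (log2 difference -0.54, standard error 0.11, limma adjusted p = 0.0165). At ZT24 it had 30.8, 33.9 and 37.4 CPM in SOB3-D and 51.7, 43.0 and 50.9 CPM in sob3-6 (log2 difference 0.51, standard error 0.10, limma adjusted p = 0.0206). The groups were separate at both times and in opposite order. The ZT9 call was lost without SOB3-D replicate 1 or 2 or sob3-6 replicate 2 (limma adjusted p up to 0.0810), and the ZT24 call without SOB3-D replicate 1 or 2 or sob3-6 replicate 1 (limma adjusted p up to 0.0742).

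**Figure D3:**
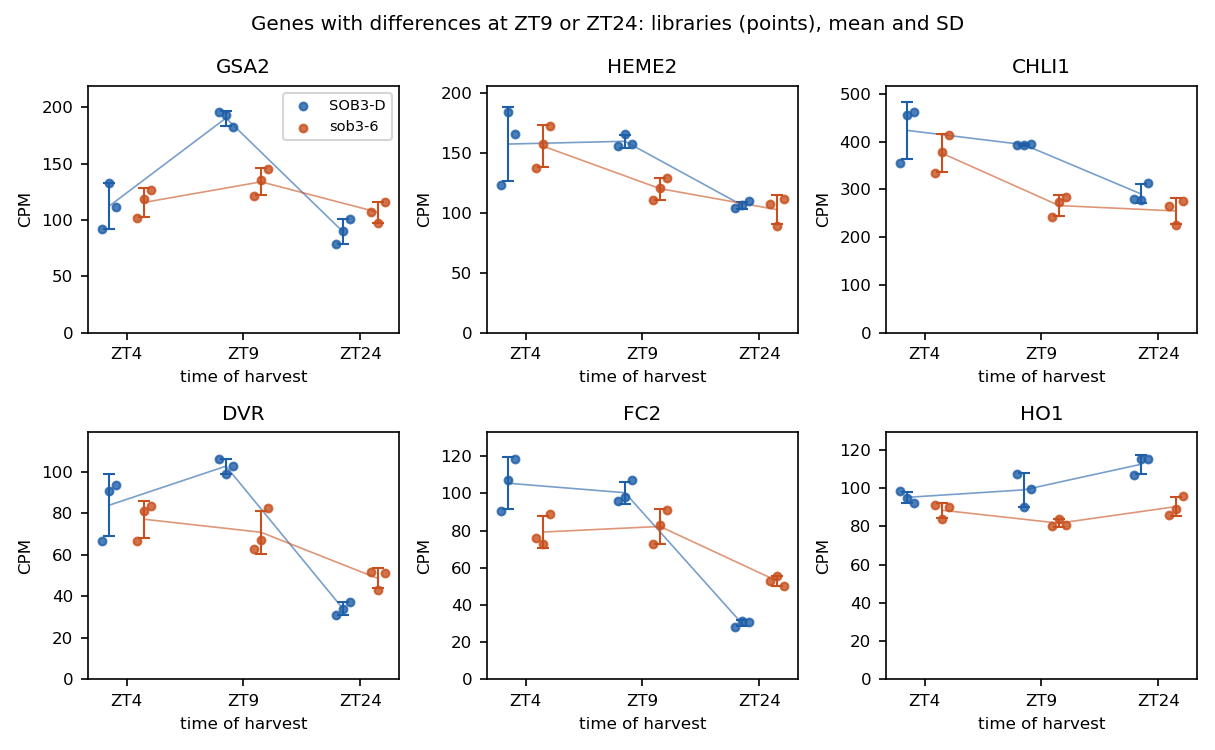
Level in CPM (vertical axes, from 0, a separate scale for each gene) of GSA2, HEME2, CHLI1, DVR, FC2 and HO1 in each library at ZT4, ZT9 and ZT24, with points for libraries and bars for the mean and SD of 3. GSA2, HEME2, CHLI1 and DVR lie lower in sob3-6 at ZT9, and DVR and FC2 lie higher in sob3-6 at ZT24. HO1 lies lower in sob3-6 at each time point, with a call at ZT24 only.

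The late steps add the phytyl tail and make chlorophyll b, and here the 2 called genes were both higher in sob3-6 at ZT9. CAO (AT1G44446, chromosome 1 from 16848308 to 16851271), the oxygenase that converts chlorophyll a to b, was read at ZT9 at 29.4, 31.3 and 27.8 CPM in SOB3-D and at 56.9, 66.7 and 52.2 CPM in sob3-6. The groups were far apart (log2 difference 0.97, standard error 0.11, limma adjusted p = 0.00148). At ZT4 it had 284, 287 and 298 CPM in SOB3-D and 289, 279.5 and 363 CPM in sob3-6, and at ZT24 339, 307 and 301 against 322, 284 and 311 CPM. At those times the groups overlapped (log2 differences 0.09 and -0.05).

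CHLP (AT1G74470), annotated as geranylgeranyl reductase, which supplies the phytyl chain, had 732, 709 and 741 CPM in SOB3-D and 1089.8, 1116 and 1158 CPM in sob3-6 at ZT9. The difference was 0.62 on the log2 scale (standard error 0.093, limma adjusted p = 0.00447) and the groups were separate. Exons of AT1G74480 on the other strand, at 0 to 0.717 CPM over the libraries, cover 338 of the 2087 bases of its transcript. Chlorophyll synthase, CHLG, had a log2 difference of -0.35 at ZT9 (limma adjusted p = 0.0516, 0.0202 with the replicate block). The enzymes that turn chlorophyll b back to a, NYC1 and HCAR, had log2 differences between -0.22 and 0.22 at the 3 time points and no call.

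**Figure D4:**
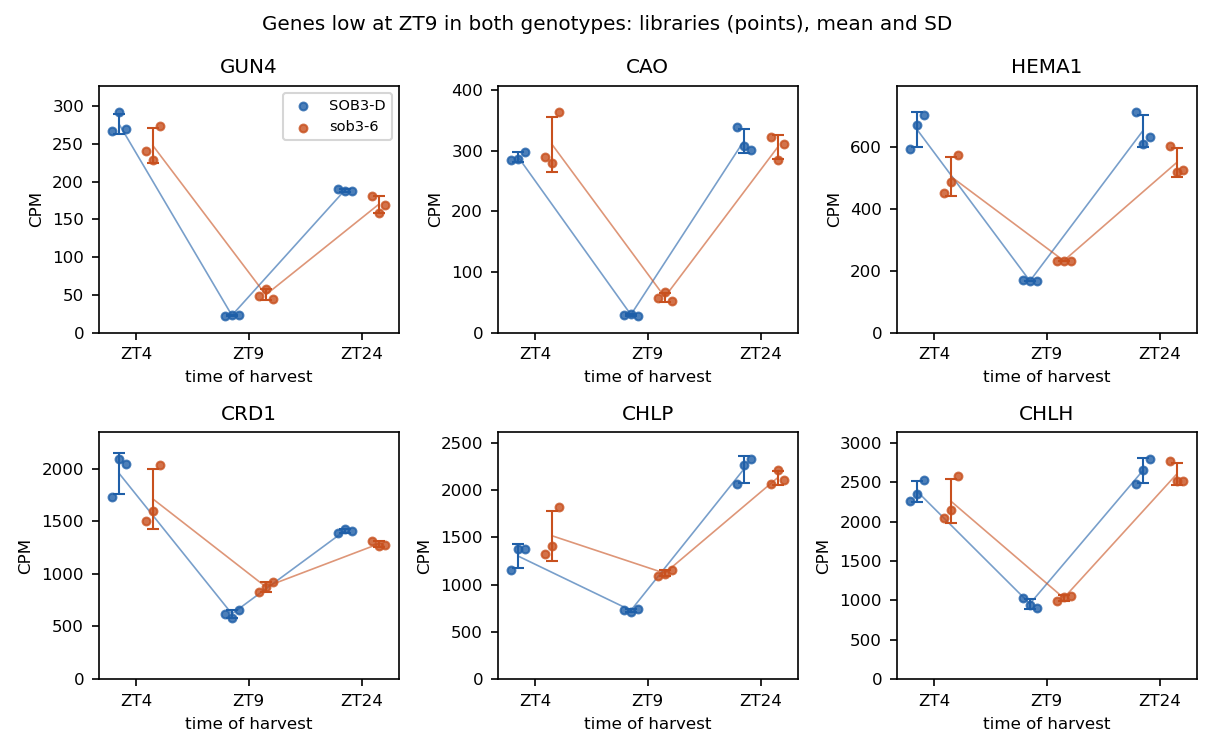
Level in CPM (vertical axes, from 0, a separate scale for each gene) of GUN4, CAO, HEMA1, CRD1, CHLP and CHLH in each library at ZT4, ZT9 and ZT24, with points for libraries and bars for the mean and SD of 3. All 6 are lowest at ZT9 in both genotypes, and at ZT9 the 3 sob3-6 libraries lie above the 3 SOB3-D libraries for each gene but CHLH.

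On the heme and bilin branch the clearest difference came at dawn. FC2 (AT2G30390), the ferrochelatase linked with photosynthetic tissue, had 28.3, 31.3 and 30.5 CPM in SOB3-D and 52.9, 55.6 and 50.3 CPM in sob3-6 at ZT24. The log2 difference was 0.81 (standard error 0.080, limma adjusted p = 0.000810), and the groups were far apart. Earlier in the cycle it lay the other way, with log2 differences of -0.41 at ZT4 and -0.29 at ZT9 that did not pass (limma adjusted p = 0.0890 and 0.110) but did with the replicate block (0.0272 and 0.0266). FC1, the ferrochelatase found throughout the plant, had log2 differences of -0.04, 0.13 and 0.03 and no call, and 2.09% of its stretches of 84 bases also occur in AT5G26038, which overlaps it.

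HO1 (AT2G26670), the heme oxygenase of phytochrome chromophore synthesis, was called lower in sob3-6 at ZT24 only. It had 107, 115 and 115 CPM in SOB3-D and 86.1, 89.1 and 95.8 CPM in sob3-6 at that time. The log2 difference was -0.32 (standard error 0.069, limma adjusted p = 0.0282), and the call was lost in 4 of the 6 fits that left out 1 library (limma adjusted p up to 0.114), those without SOB3-D replicate 2 or 3 or sob3-6 replicate 1 or 2. At ZT4 and ZT9 every sob3-6 library also lay below every SOB3-D library for HO1, without a call. Its mean was 95.2 CPM in SOB3-D and 88.4 CPM in sob3-6 at ZT4, and 99.1 and 81.7 CPM at ZT9. No change of the HO1 genotype difference between time points was called. HY2, the bilin reductase that finishes the chromophore, had log2 differences of 0.22, 0.01 and 0.32 and no call.

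Through the day, members were called in both directions in both genotypes, and the shares in brackets below are those of all genes tested. From ZT9 to ZT24, where it was largest, the members' median absolute log2 change was 0.88 in SOB3-D and 0.53 in sob3-6. Over all genes it was 0.31 and 0.23. Each library was scaled by its own mapped reads, which does not remove differences in composition. From ZT4 to ZT9 the median gene moved by 0.08 in SOB3-D, and by 0.02 with TMM rescaling. Time of day, day of harvest and handling cannot be told apart here, and ZT24 seedlings were 1 day older. From ZT4 to ZT9, 10 members rose in SOB3-D (21.1% of genes) and 8 fell (12.5%), and 5 rose in sob3-6 (16.3%) and 12 fell (9.28%). From ZT9 to ZT24, 8 members rose in SOB3-D (18.2% of genes) and 17 fell (18.8%), and 7 rose in sob3-6 (12.3%) and 10 fell (13.6%). From ZT4 to ZT24, 5 rose in SOB3-D (21.8% of genes) and 13 fell (15.1%), and 2 rose in sob3-6 (14.8%) and 15 fell (10.4%). Rises in sob3-6 from ZT4 to ZT9, and in both genotypes from ZT4 to ZT24, were no more common than over all genes. With TMM rescaling the 10 members that rose in SOB3-D to ZT9 became 5, beside 8 that fell, and the 5 that rose to ZT24 became 3, beside 14 that fell.

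Several of these counts changed when the libraries of 1 replicate number were left out. The shares of all genes called in those fits are not given. Without number 2, 6 members fell in SOB3-D and 7 in sob3-6 from ZT4 to ZT24, 7 fell in sob3-6 from ZT4 to ZT9, and 5 fell in sob3-6 from ZT9 to ZT24. The members that rose from ZT4 to ZT9 numbered 6 in SOB3-D and 2 in sob3-6 without number 2, and 5 and 3 without number 1. From ZT4 to ZT24, 3 rose in SOB3-D without number 2, and in sob3-6 1 rose without number 1 or 2 and 4 without number 3.

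GUN4 and CAO fell furthest from ZT4 to ZT9. With no library between these times, the fall cannot be placed before or after dusk. The log2 change of GUN4 from ZT4 to ZT9 was -3.57 in SOB3-D (limma adjusted p = 9.1e-15) and -2.30 in sob3-6 (limma adjusted p = 4.6e-12). That of CAO was -3.28 in SOB3-D and -2.39 in sob3-6. In the same order HEMA1 had -1.97 and -1.11, CRD1 -1.65 and -0.95, CHLH -1.32 and -1.13, and CHLP -0.84 and -0.42. All 6 genes rose again to ZT24 in both genotypes, CAO by 3.40 in SOB3-D and 2.38 in sob3-6 and GUN4 by 3.02 and 1.76 on the log2 scale.

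The genes of chlorophyll b breakdown ran the opposite way. HCAR, which returns hydroxymethyl chlorophyll to chlorophyll a, rose to ZT9 by 3.21 on the log2 scale in SOB3-D and 2.81 in sob3-6, and NYC1, the chlorophyll b reductase, by 1.43 and 1.502. HCAR was read at 3.33 to 6.05 CPM in SOB3-D at ZT4 and at 45.8 to 50.7 CPM at ZT9. Both fell again to ZT24, with log2 changes of -2.06 and -1.77 for HCAR and -2.12 and -1.86 for NYC1.

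Among the POR genes, PORC fell at each step in both genotypes, while PORB rose by 0.54 on the log2 scale from ZT4 to ZT9 in sob3-6 and had no call over those hours in SOB3-D. From ZT9 to ZT24 the log2 change of PORB was -1.39 in SOB3-D and -2.98 in sob3-6, and that of PORC -1.15 and -0.53. FC2 had no call from ZT4 to ZT9 in either genotype and fell overnight, with -1.72 in SOB3-D and -0.63 in sob3-6. DVR likewise had -1.58 and -0.53 overnight.

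Whether the genotype difference itself changed with time was tested as an interaction in 1 fit of the 18 libraries. From ZT4 to ZT9 it changed for 4 members (1.45% of 20715 genes), GUN4, CAO, HEMA1 and CRD1, each towards sob3-6. From ZT9 to ZT24 it changed for 12 (3.99% of genes): HEMA1, CRD1, PORA, PORB, CHLP, CAO and GUN4 towards SOB3-D and GSA1, GSA2, DVR, PORC and FC2 towards sob3-6. From ZT4 to ZT24 it changed for 3 (2.94% of genes), PORA and PORB towards SOB3-D and FC2 towards sob3-6. With the replicate block, nested in time point, the counts were 7 from ZT4 to ZT9 (3.04% of genes) and 6 from ZT4 to ZT24 (5.69%). These counts were smallest without the 6 libraries of replicate number 2, at 0, 1 (GUN4) and 0. They were 2, 3 and 2 without number 1, and 4, 10 and 2 without number 3. With edgeR's quasi-likelihood test the count from ZT9 to ZT24 was 7. The shares of all genes called in these fits are not given, and the part of having fewer libraries was not tested.

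GUN4 gave the firmest of these changes. Its genotype difference moved by 1.26 on the log2 scale from ZT4 to ZT9 (standard error 0.13, limma adjusted p = 8.3e-05) and by -1.26 from ZT9 to ZT24 (standard error 0.13, limma adjusted p = 5.7e-05). FC2 moved by 1.10 from ZT9 to ZT24 (standard error 0.15, limma adjusted p = 0.000645) and PORB by -1.58 (standard error 0.22, limma adjusted p = 0.000645). With 1 replicate number left out of each group, the largest adjusted p was 0.0562 and 0.0393 for the 2 changes of GUN4, and 0.102 for both FC2 and PORB.

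Other genes of the pathway, isoforms and side branches outside the 31, had their largest count of calls between genotypes at ZT9. Of 16 listed, 13 were tested. At ZT4 limma called 1 higher and 0 lower in sob3-6 (0 lower also at an unadjusted p under 0.05), against 4.26% and 2.45% of all genes. At ZT9 it called 1 higher and 4 lower, against 5.96% and 4.11% of all genes, and at ZT24 1 in each direction, against 4.9% and 2.05%. The higher one was HEMF2, a second coproporphyrinogen oxidase gene, each time, at 25.9 ± 4.59 CPM in sob3-6 against 12.7 ± 1.40 in SOB3-D at ZT9 (SD, n = 3, limma adjusted p = 0.00545). The lower ones at ZT9 included UPM1, which draws uroporphyrinogen towards siroheme (122 ± 5.27 against 187 ± 19.6 CPM, limma adjusted p = 0.00568), LCAA, a further cyclase subunit (131 ± 19.1 against 190 ± 8.13 CPM, limma adjusted p = 0.0172), and GBP, which binds glutamyl-tRNA reductase (59.0 ± 4.98 against 86.2 ± 2.91 CPM, limma adjusted p = 0.00721), and AT5G63290 was the other. LCAA was also the lower gene at ZT24. Of 8 chlorophyll breakdown genes, 2 were lower at ZT4 (RCCR and CLH2), against 2.45% of all genes. At ZT9 0 were called by limma, where 1 had an unadjusted p under 0.05. At ZT24 CLH1 was higher (22.2 ± 2.35 against 9.14 ± 3.89 CPM, limma adjusted p = 0.0124), against 4.9% of all genes called higher.

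Transcription factors and signalling genes known to act on chlorophyll genes were called at each time point. Of 13 tested, limma called 0 higher (2 at an unadjusted p under 0.05) and 4 lower in sob3-6 at ZT4 (GLK2, HYH, GNC, CGA1), 6 higher and 1 lower at ZT9, and 2 higher (PIF3, GNC) and 1 lower (GLK2) at ZT24. Of all genes, 4.26% were called higher and 2.45% lower at ZT4, 5.96% higher and 4.11% lower at ZT9, and 4.9% higher and 2.05% lower at ZT24. At an unadjusted p under 0.05, 7, 7 and 9 of the 13 differed at ZT4, ZT9 and ZT24. The ZT9 genes higher in sob3-6 were GLK1, GLK2, GNC, CGA1, PIF4 and PIF5, and the lower one was GUN1, a plastid signalling protein. GLK1 and GLK2 activate nuclear photosynthesis genes and GNC and CGA1 are GATA factors that promote chlorophyll accumulation, whereas PIF4 and PIF5 are phytochrome-interacting factors.

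GLK2 was lower in sob3-6 at ZT4 and ZT24 and higher at ZT9. It was read at 339 ± 24.3 CPM in SOB3-D and 193 ± 30.6 in sob3-6 at ZT4 (log2 difference -0.82, limma adjusted p = 0.00667), and at 8.77 ± 0.803 and 20.9 ± 1.80 CPM at ZT9 (log2 difference 1.20, limma adjusted p = 0.00117). At ZT24 it stood at 167 ± 14.95 CPM in SOB3-D and 113 ± 5.05 in sob3-6 (log2 difference -0.56, limma adjusted p = 0.00388). Its genotype difference moved by 2.02 from ZT4 to ZT9 (standard error 0.15, limma adjusted p = 1.7e-06) and by -1.77 from ZT9 to ZT24 (standard error 0.15, limma adjusted p = 6.9e-06). PIF4 at ZT9 stood at 54.7 ± 4.94 CPM in SOB3-D and 156 ± 12.3 in sob3-6 (log2 difference 1.51, limma adjusted p = 0.000119). At the same time GLK1 stood at 17.4 ± 1.43 and 30.4 ± 2.34 CPM (log2 difference 0.79, limma adjusted p = 0.00400) and GNC at 18.3 ± 4.50 and 39.4 ± 1.58 CPM (log2 difference 1.11, limma adjusted p = 0.00376).

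**Figure D5:**
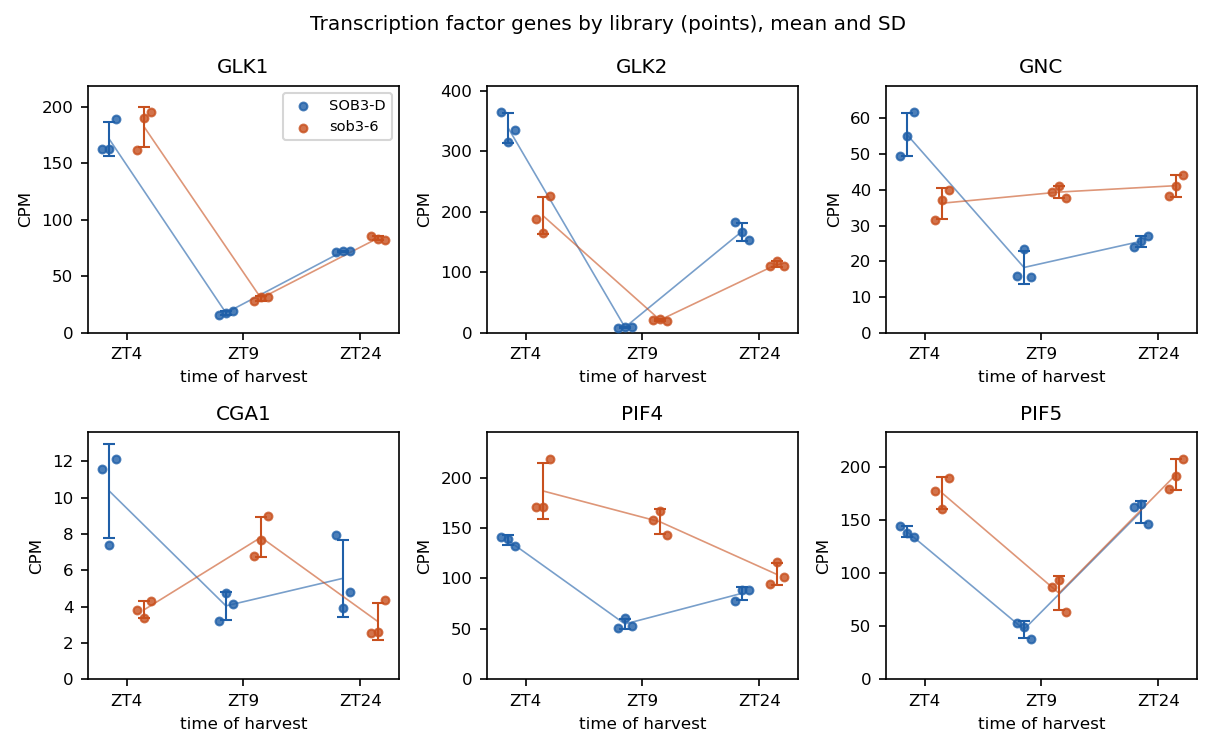
Level in CPM (vertical axes, from 0, a separate scale for each gene) of GLK1, GLK2, GNC, CGA1, PIF4 and PIF5 in each library at ZT4, ZT9 and ZT24, with points for libraries and bars for the mean and SD of 3. At ZT9 each of the 6 lies higher in sob3-6, and at ZT4 GLK2, GNC and CGA1 lie lower.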

How the data were processed

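Per the labels, libraries were made with a stranded mRNA kit from whole seedlings. The authors mapped the reads with Bowtie to the TAIR10 transcripts, kept all best hits, and deposited 1 table for each time point with a signal per transcript and library, in CPM. A read on several transcripts was counted on each, so columns sum to 1546178 to 1573550, and the unit is treated as a signal. All value columns were matched to samples by name. The deposited values are whole multiples of 1 read for 100% of values (tolerance 0.1 read), which gave the reads used with edgeR and DESeq2.

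A gene was read by its transcript with the highest mean over the 18 libraries. Tests used log2(CPM + 0.5) of the transcripts whose mean reached 0.5 CPM, a scale on which changes of low genes come out too small, and limma 3.58.1 (R 4.3.3), trend in the variance, two-sided, with Benjamini-Hochberg adjustment over all transcripts tested. Genotypes were compared within a time point, 3 against 3. Interactions and time contrasts came from 1 fit of 18 libraries with 6 group means. The fit was tested on simulated data. Alternatives were the replicate block, pseudocounts of 0.1 and 1 CPM, no filter, a minimum of 5 CPM, TMM rescaling, edgeR 4.0.16, DESeq2 1.42.0, any transcript of a gene, 1 fit of all 18 libraries, and each library or replicate number left out. Other steps ran in Python 3.11.15 (numpy 2.4.6, pandas 2.3.3) and figures in matplotlib 3.10.9.

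By the study's methods, both genotypes of 1 replicate number shared plates at harvest, so replicate numbers pair genotypes within a time point. After removal of group means, same-numbered libraries of the 2 genotypes correlated at r of 0.0935 to 0.320 and the others at -0.225 to 0.110. Across time points the numbers were not taken as pairs in the main fit. Same-numbered libraries of 1 genotype still correlated there at a median r of 0.174, and differently numbered ones at -0.12. An effect shared by a replicate number across time points was thus left in the time contrasts.

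Full values are given, by rule, for HEMA1, GUN4, CHLH, PORA, PORB, PORC, FLU and CAO. For up to 12 further members called between genotypes, every library is given at the time point of the call, and fewer values or none at other times. Of the other lists only called genes are named. The members and lists were chosen with earlier results of these data known. Counts of replicate pairs differed by more than sampling noise (chi-square per degree of freedom 2.66 to 14.3 over 18 pairs). Gene positions and upstream sequences are from RefSeq's TAIR10.1 annotation. Proteins are not analysed here.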

Additional observations from a re-analysis of the deposited data

Results flagged for a closer look

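For 19 tests of the members, the difference between the genotypes itself changed between time points (interaction in limma, adjusted p under 0.05 over all transcripts). In each case the value is the change of the log2 difference, sob3-6 minus SOB3-D, so that a positive value is a move towards sob3-6.

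From ZT4 to ZT9, GUN4 moved by 1.26, CAO by 0.88, HEMA1 by 0.86 and CRD1 by 0.70. From ZT9 to ZT24 the same 4 genes moved back, by -1.26, -1.02, -0.72 and -0.64. Over those hours PORA moved by -3.09, PORB by -1.58 and CHLP by -0.68, while FC2 moved by 1.10, DVR by 1.05, GSA2 by 0.77, GSA1 by 0.69 and PORC by 0.62. From ZT4 to ZT24 PORA moved by -3.48, PORB by -0.95 and FC2 by 1.22. The PORA values rest on a few reads in SOB3-D at ZT9 and depend on the pseudocount.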

How the results depend on the processing

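Every genotype call of a member kept its direction and its side of the threshold in all alternatives that used all libraries, except that PORA at ZT9 was not tested with a minimum of 5 CPM. Of 1393 genotype differences of single members under an alternative, 25 lost a call, all with a library left out, 28 gained one, and 0 of those called, before or after, changed direction; small uncalled differences could change sign. The replicate block gave 2 higher and 1 lower members at ZT4, 10 lower at ZT9, 6 lower at ZT24, and 7 and 6 members whose genotype difference changed from ZT4 to ZT9 and from ZT4 to ZT24; it removed no genotype call, and changed no other one than those printed in the report. Across time points the replicate numbers were not taken as pairing libraries in the main fit. Same-numbered libraries of 1 genotype correlated there at r of -0.0455 to 0.393 (median 0.174), and differently numbered ones at -0.356 to 0.297 (median -0.12). With the block 14 members in place of 10 fell in sob3-6 from ZT9 to ZT24. DESeq2 gave 2 higher and 1 lower at ZT4, and 1 fit of all 18 libraries 2 higher and 3 lower. The members that rose in SOB3-D from ZT4 to ZT9 numbered 5 with DESeq2, TMM rescaling and edgeR, and those that rose to ZT24 numbered 3 with TMM rescaling and edgeR. With edgeR, 3 rose in sob3-6 from ZT4 to ZT9, and 7 genotype differences changed from ZT9 to ZT24. The cause was not tested.

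With 1 library left out, members lower in sob3-6 numbered 0 to 1 at ZT4, 1 to 10 at ZT9 and 1 to 4 at ZT24. With 1 replicate number left out, changed genotype differences numbered 0 to 4 from ZT4 to ZT9, 1 to 10 from ZT9 to ZT24 and 0 to 2 from ZT4 to ZT24. In SOB3-D 5 to 10 rose to ZT9, 3 to 4 rose to ZT24 and 6 to 14 fell from ZT4 to ZT24. In sob3-6, 2 to 5 rose and 7 to 11 fell to ZT9, 1 to 4 rose and 7 to 15 fell from ZT4 to ZT24, and 5 to 12 fell from ZT9 to ZT24. These fits had fewer libraries, and the shares of all genes called in them are not given. Read depth limits PORA most, with 0 to 2 reads in SOB3-D at ZT9, so that its fold there has a wide counting interval.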
